A study of Mus musculus with 8 samples.

Results

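The genes of the collagens, the main structural proteins of the extracellular matrix, were followed in RNA-seq libraries of mouse hearts. They were taken as the protein-coding genes whose GENCODE symbol is made of Col, a number for the collagen type, the letter a and a number for the chain, and they were matched to the count tables by Ensembl identifier. The rule gave 44 of the 53465 Ensembl genes counted: 11 of fibrillar types, 6 of the basement membrane type and 27 of other types. Of the 44, 40 passed a filter on low counts and were tested, and Col6a4, Col9a1, Col19a1 and Col22a1 did not, with at most 10 reads in any library. All hearts came from 2-week-old mice of mixed strain that were knockouts (Lmna-/-) of Lmna, the gene of the nuclear lamins A and C. The 5 AAV9-LMNA libraries (replicates 1 to 5, labelled Lmna-/-:AAV9 Lmna WT) were of knockout hearts given an adeno-associated virus with wild-type Lmna, and the 3 untreated libraries (replicates 6 to 8, labelled Lmna-/-) were of knockout hearts with no vector in their labels. Nothing in the sources used here gives the vector's promoter or dose, or the animals' sex, litter or batch, and neither wild-type hearts nor hearts given a control vector were analysed here. The labels do not say that each library is of a separate animal, so the p-values measure only the spread between these libraries, which may be technical.

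A collagen molecule is a helix of chains, either copies of the same chain or products of different Col genes. Fibrillar collagens such as types I, III and V are secreted as procollagens, trimmed at their ends and packed into the fibrils that carry tension in the heart wall, where fibroblasts make most of them. Type IV collagen forms the sheet-like network of the basement membranes around cardiomyocytes and vessels, and the other types bind to fibrils, link matrix to cells, form fine networks or span the cell membrane.

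Counts on features ran from 21439956 to 26492443 per library. Values are given as CPM, counts scaled to library sizes with edgeR's TMM factors. Lmna was at 393, 227, 325, 312 and 747 CPM in AAV9-LMNA replicates 1 to 5, against 46.4, 68.7 and 32.3 CPM in untreated replicates 6 to 8 (log2 fold change 3.03, SE 0.457, adjusted p = 0.00486). Untreated replicate 6 lay outside the other 7 libraries in several measures. Reads outside all features, as a percentage of the reads on, outside or ambiguous between features, were 12.1 to 12.8% in AAV9-LMNA libraries, against 24.7, 16.8 and 18.4% in untreated replicates 6, 7 and 8. The 12 fibroblast markers summed to 2694 to 3594 CPM in AAV9-LMNA libraries, against 1933, 3479 and 3369 CPM in untreated replicates 6, 7 and 8. A large part of this sum was Gsn, at 1071 to 1988 CPM in AAV9-LMNA libraries. In untreated replicates 6, 7 and 8 Gsn was at 927, 2013 and 1740 CPM. None of the 12 was at 0 in any library, and 10 were lowest in untreated replicate 6 of all 8 libraries. Of the 13785 coding genes tested, 5862 were lowest in that library. By edgeR none was called and 1 had an unadjusted p under 0.05, by DESeq2 none was called, and by limma-voom 1 was called higher. The median log2 fold change of the 12, AAV9-LMNA over untreated, was 0.31, with 8 above 0 and 4 below. Their median log2 ratio of untreated replicate 6 to the mean of replicates 7 and 8 was -1.16, with a range of -2.64 to 0.30. Pdgfra, 1 of the 12, was at 165 to 197 CPM in AAV9-LMNA libraries and at 150, 174 and 254 CPM in untreated replicates 6, 7 and 8. For Pdgfra the fold change was -0.10 and the ratio -0.51. The 10 mural cell markers summed to 2542 to 3061 CPM in AAV9-LMNA libraries and 2243 to 2776 CPM in untreated libraries, with none called by edgeR or limma-voom and 1 called higher by DESeq2. The 10 endothelial markers summed to 2118 to 2629 CPM in AAV9-LMNA libraries, against 1381, 1897 and 2288 CPM in untreated replicates 6, 7 and 8, with 3 called higher and 1 lower by each of edgeR, DESeq2 and limma-voom. Over all features edgeR called 10.6% higher and 15% lower. After a correction for exon length and GC content, none of these 10 was called higher and 1 was called lower. Of the 15248 Ensembl genes fitted with that correction, 2.63% were called higher and 5.51% lower. The 10 cardiomyocyte markers summed to 96832 to 118444 CPM in AAV9-LMNA libraries, against 162754, 113200 and 142253 CPM in untreated replicates 6, 7 and 8, with 2 called higher and 2 lower by each of these tools. After the correction none of the 10 was called higher and 1 was called lower. Their median log2 fold change was 0.02, with 5 above 0 and 5 below. Ttn alone was at 36733 to 54554 CPM in AAV9-LMNA libraries, against 87055.5, 63491 and 76620 CPM in untreated replicates 6, 7 and 8. Its log2 fold change was -0.77 (adjusted p = 0.00465), and 0.10 (adjusted p = 0.719) after the correction. The 9 macrophage markers summed to 587 to 662 CPM in AAV9-LMNA libraries, against 189, 725 and 313 CPM in untreated replicates 6, 7 and 8, with none called by edgeR, 2 called higher by DESeq2 and 3 by limma-voom. The 7 epicardial markers summed to 9.53 to 32.4 CPM in AAV9-LMNA libraries and 12.3 to 39.6 CPM in untreated libraries, with none called by these tools. The labelled tissue, heart, thus showed its defining cardiomyocyte genes in every library. The part of these differences in the collagen results was not tested.

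Most collagen genes were at overlapping levels in AAV9-LMNA and untreated hearts, and nearly every well-expressed collagen was low in untreated replicate 6. Summed over all 44 genes, collagen transcripts were 9042, 14572, 12825, 13157 and 14382 CPM in AAV9-LMNA replicates 1 to 5, against 4742, 13038 and 13288 CPM in untreated replicates 6, 7 and 8. Replicates 7 and 8 lay within the AAV9-LMNA range, and replicate 6 lay below every other library. In bulk tissue, fewer cells of a type and less RNA per cell cannot be told apart. By edgeR's quasi-likelihood test with Benjamini-Hochberg adjustment over 26717 features (called where the adjusted p was under 0.05), 1 collagen gene was called higher in AAV9-LMNA hearts (Col4a5) and 2 were called lower (Col10a1 and Col17a1). The other 37 of the 40 tested were not called, and 8 of the 40 had an unadjusted p under 0.05, against 40.6% of all features and 39.2% of coding genes. Over all features tested, 10.6% were called higher, 15% were called lower and 25.7% were called in either direction. DESeq2 called 14.6% higher and 15.9% lower, and limma-voom 11.4% higher and 14.5% lower. Among the 13785 protein-coding genes tested, 18.4% were called higher, 6.07% were called lower and 24.5% were called in either direction. The groups did not overlap in 4 of the 40 collagen genes (Col4a5, Col10a1, Col17a1 and Col23a1), against 29.9% of all features and 29.7% of coding genes. The median log2 fold change, AAV9-LMNA over untreated, was 0.09 over the 40 collagen genes, -0.03 over all features and 0.21 over coding genes. With scaling over Ensembl genes alone it was -0.09 over the collagen genes, 0.02 over all features and 0.02 over coding genes, so the collagen median had no fixed sign.

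**Figure D1:**
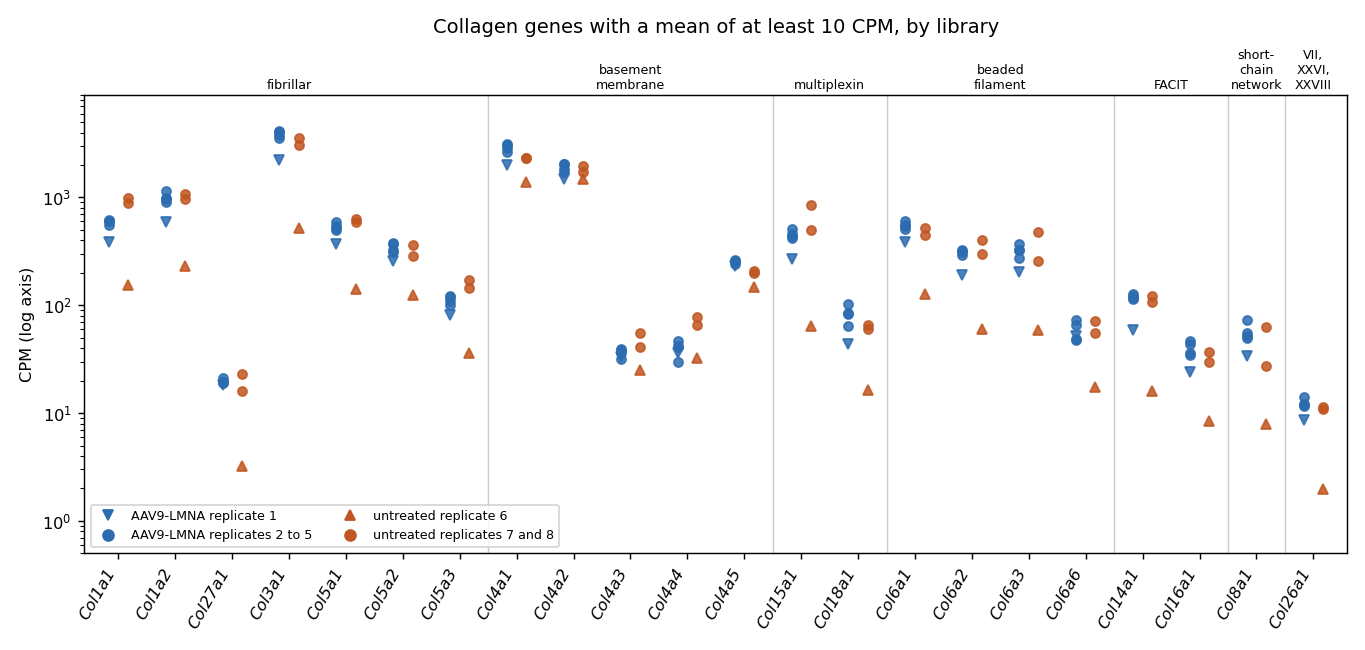
CPM (log axis) of the 22 collagen genes with a mean of at least 10 CPM over all libraries, by type, 1 point per library, with AAV9-LMNA left of untreated. The upward triangles, untreated replicate 6, are the lowest of the untreated libraries in all 22 genes, and the downward triangles mark AAV9-LMNA replicate 1. Replicate 6 was the lowest untreated library in 4144 of the 8392 coding genes at that level.

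By type, none of the 11 fibrillar genes was called by edgeR, DESeq2 or limma-voom, and none had an unadjusted p under 0.05 by any of them (edgeR median log2 fold change 0.16, range -0.28 to 0.57). Of the 6 type IV genes, 1 was called higher and none lower by each of these tools, and 3 had an unadjusted p under 0.05 by edgeR (median -0.05, range -0.60 to 0.45). Of the 23 other genes tested, 2 were called lower by edgeR, against 4 by DESeq2 and 2 by limma-voom, none was called higher by any of these, and 5 had an unadjusted p under 0.05 by edgeR (median 0.10, range -1.26 to 1.01). On the scale of CPM per kilobase of merged exons, fibrillar chains summed to 419.6, 720.2, 624, 676 and 715 in AAV9-LMNA replicates 1 to 5, against 132, 654 and 734 in untreated replicates 6 to 8. Type IV chains summed on that scale to 532, 778, 705, 663 and 767 in AAV9-LMNA replicates 1 to 5, against 441, 614 and 652 in untreated replicates 6 to 8. The other types summed to 208, 345, 296, 317 and 325 in AAV9-LMNA replicates 1 to 5, against 67.5, 396 and 292 in untreated replicates 6 to 8. The groups overlapped for each of these sums, and replicate 6 was lowest in each. Fibrillar chains made up 36.2 to 40.8% of the collagen CPM per kb in AAV9-LMNA libraries, against 20.6, 39.3 and 43.8% in untreated replicates 6, 7 and 8. Type IV chains made up 40.04 to 45.9% in AAV9-LMNA libraries, against 68.9, 36.9 and 38.8% in untreated replicates 6, 7 and 8. The ratio of fibrillar to type IV levels was thus 0.79 to 1.02 in AAV9-LMNA libraries, against 0.30 in untreated replicate 6 and 1.07 and 1.13 in untreated replicates 7 and 8. Type IV was the larger share in untreated replicate 6, and fibrillar chains were the larger share in untreated replicates 7 and 8.

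**Figure D2:**
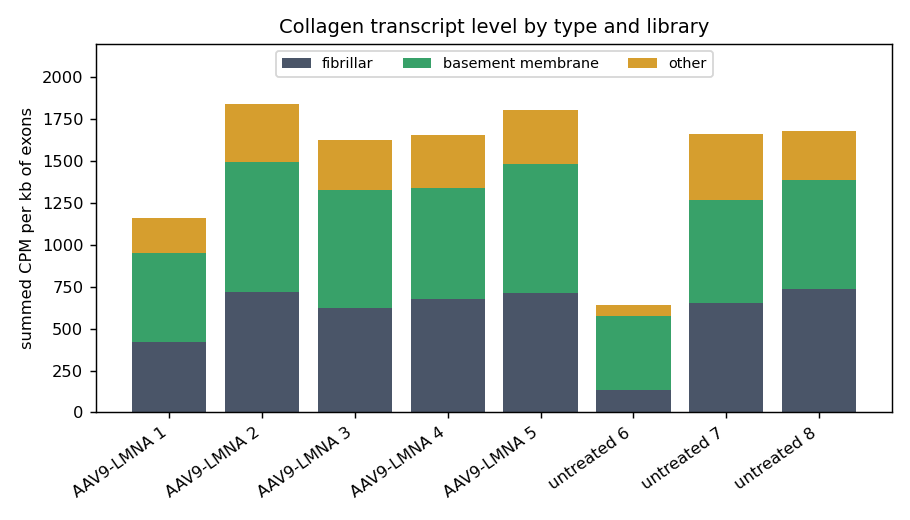
Summed CPM per kb of exons of fibrillar, basement membrane (type IV) and other collagen genes in each library, AAV9-LMNA left and untreated right. The fibrillar part of the bar is 132 in untreated replicate 6 and between 419.6 and 734 in the other 7 libraries.

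Among fibrillar chains, Col3a1 (GRCm38, ENSMUSG00000026043, chromosome 1, 45311538 to 45349706), whose product is the only chain of type III collagen of extensible tissues, had the highest level per kb, 361 CPM per kb in AAV9-LMNA hearts and 243 in untreated hearts. It was at 2243, 4122, 3522, 3797 and 4019 CPM in AAV9-LMNA replicates 1 to 5, against 523, 3053 and 3591 CPM in untreated replicates 6 to 8. The untreated values included the lowest of the 8, and replicates 7 and 8 fell inside the AAV9-LMNA range, so that the difference was smaller than the spread (log2 fold change 0.57, SE 0.549, adjusted p = 0.463). Exons of Gm47302 overlap 1.44% of its exon length, and reads of overlapping genes could not be told apart, since counting was without strand. Col1a1 (ENSMUSG00000001506, chromosome 11, 94936224 to 94953042), the alpha 1 chain of type I collagen, the main load-bearing fibril protein, was at 386, 601, 552, 614 and 606 CPM in AAV9-LMNA replicates 1 to 5, against 154, 879 and 983 CPM in untreated replicates 6 to 8. Both extremes were untreated libraries, with replicate 6 below and replicates 7 and 8 above every AAV9-LMNA library (log2 fold change -0.28, SE 0.510, adjusted p = 0.699). Col1a2 (ENSMUSG00000029661, chromosome 6, 4504814 to 4541544), the partner alpha 2 chain of type I, was at 590.5, 996, 899, 969 and 1138 CPM in AAV9-LMNA replicates 1 to 5, against 232, 957 and 1085 CPM in untreated replicates 6 to 8 (log2 fold change 0.28, SE 0.448, adjusted p = 0.667). Untreated replicates 7 and 8 lay within its AAV9-LMNA range.

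The type III gene is shown by the 250 bases before its start site (chr1:45311288-45311537, plus strand, GRCm38.p6, credited to RefSeq), since it is the gene above the line in the ratio described next. The letters TATAAA of a common core promoter element, the CCAAT box and the Sp1-type GC box GGGCGG were searched on both strands, and matches are in capitals.
Col3a1: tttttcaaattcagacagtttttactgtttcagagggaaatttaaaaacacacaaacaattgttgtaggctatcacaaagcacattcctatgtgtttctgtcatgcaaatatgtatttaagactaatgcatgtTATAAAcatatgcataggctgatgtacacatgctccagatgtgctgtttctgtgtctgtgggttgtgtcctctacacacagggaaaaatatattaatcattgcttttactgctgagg
The stretch holds 1 TATAAA and neither of the others. TATAAA was in 12.4% of 32851 RefSeq windows of that length, CCAAT in 33.8% and GGGCGG in 32.7%. A match is only a run of letters, not a bound site.

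Although neither gene was called, the proportion of type III to type I chains separated the groups. Col3a1 over Col1a1, as a ratio of CPM per kb within each library, was 3.89, 4.58, 4.27, 4.13 and 4.44 in AAV9-LMNA replicates 1 to 5, against 2.27, 2.32 and 2.44 in untreated replicates 6 to 8. The means were 4.26 ± 0.270 in AAV9-LMNA hearts (SD, n = 5) and 2.35 ± 0.088 in untreated hearts (SD, n = 3), 1.82 times higher in AAV9-LMNA hearts. The lowest AAV9-LMNA value was above the highest untreated value. Untreated replicate 6, low in both genes, was at 2.27 in this ratio, beside 2.32 and 2.44 in untreated replicates 7 and 8. After a correction for exon length and GC content the means were 4.40 ± 0.342 in AAV9-LMNA hearts and 2.23 ± 0.048 in untreated hearts, again without overlap. Col1a1 over Col1a2 was 1.24, 1.14, 1.16, 1.20 and 1.01 in AAV9-LMNA replicates 1 to 5, against 1.26, 1.74 and 1.72 in untreated replicates 6 to 8. The groups did not overlap, though AAV9-LMNA replicate 1 and untreated replicate 6 were close, and after the correction the means were 1.09 ± 0.0999 in AAV9-LMNA hearts and 1.72 ± 0.290 in untreated hearts, still without overlap. The merged exon length of Col1a2, 12426 bases, includes exons of all its annotated transcripts, so the ratios compare libraries and do not give chain proportions in protein. Col4a1 over Col4a2, the chains of the common type IV molecule, was 1.19, 1.36, 1.37, 1.35 and 1.34 in AAV9-LMNA replicates 1 to 5, against 0.834, 1.18 and 1.04 in untreated replicates 6 to 8. The nearest values were 1.19 in AAV9-LMNA replicate 1 and 1.18 in untreated replicate 7, and after the correction the groups overlapped (1.17 to 1.39 in AAV9-LMNA hearts and 0.829 to 1.18 in untreated hearts). For Col5a1 over Col5a2, Col6a1 over Col6a2 and Col6a3 over Col6a2 the groups overlapped on both scales. These 6 ratios were chosen as chains of the same or neighbouring molecules and no test was made of them. How often ratios of other gene pairs separate the groups was not computed. Of single features tested, 29.9% separated the groups.

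**Figure D3:**
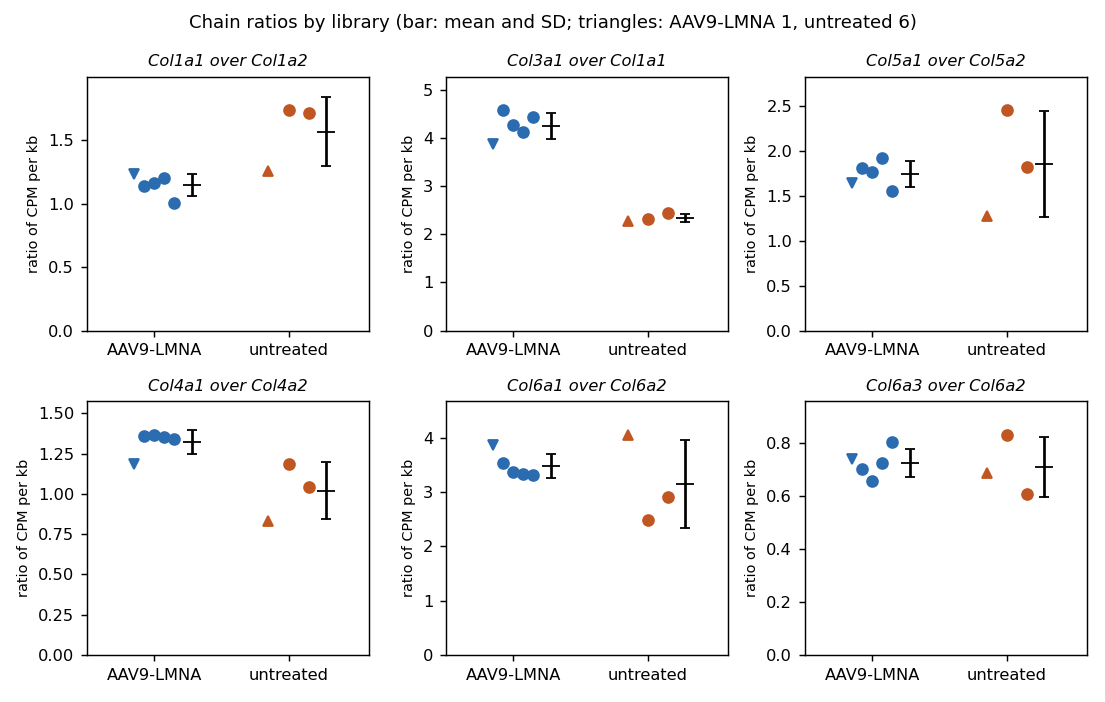
Ratio of CPM per kb of 6 pairs of collagen chains, 1 point per library, AAV9-LMNA left and untreated right, with mean and SD beside the points. Col3a1 over Col1a1 lies between 3.89 and 4.58 in AAV9-LMNA libraries and between 2.27 and 2.44 in untreated libraries.

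Type V collagen is built into type I fibrils and limits their thickness. Col5a1 was at 371, 592, 494, 548 and 523 CPM in AAV9-LMNA replicates 1 to 5, against 141, 627 and 589 CPM in untreated replicates 6 to 8, a log2 fold change of 0.16 (adjusted p = 0.795). Col5a2 was at 255, 369, 315, 322 and 379 CPM in AAV9-LMNA replicates 1 to 5, against 124, 288 and 364 CPM in untreated replicates 6 to 8, a log2 fold change of 0.34 (adjusted p = 0.411). In both genes untreated replicate 6 was the lowest of the 8 libraries and the groups overlapped. Col5a3, a further type V chain, was at 81.5 to 122 CPM in AAV9-LMNA libraries, against 36.4, 171 and 145 CPM in untreated replicates 6 to 8, a log2 fold change of -0.14 (adjusted p = 0.822). Col27a1, a fibrillar gene best known from cartilage, was at 18.0 to 21.1 CPM in AAV9-LMNA libraries, against 3.24, 23.1 and 16.1 CPM in untreated replicates 6 to 8. Its AAV9-LMNA values were among the closest of any collagen, while the untreated values spread widely. The cartilage fibril genes Col2a1, Col11a1 and Col11a2 and the minor fibrillar gene Col24a1 had at most 10.1 CPM in any library and were not called, and 4 of the 8 chondrocyte markers were too low to be tested.

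Type IV genes spanned high levels, in Col4a1 and Col4a2, to a few CPM, in Col4a6. Col4a1 (ENSMUSG00000031502, chromosome 8, 11198423 to 11312826) was at 1987, 3141, 2850.2, 2641 and 3092 CPM in AAV9-LMNA replicates 1 to 5, against 1402, 2311 and 2318 CPM in untreated replicates 6 to 8 (log2 fold change 0.45, SE 0.191, adjusted p = 0.104). Of the AAV9-LMNA libraries, replicate 1 lay below untreated replicates 7 and 8 and the other 4 lay above all untreated libraries. Without AAV9-LMNA replicate 1 Col4a1 was called higher, 0.54 (adjusted p = 0.0465). Col4a2 (ENSMUSG00000031503, chromosome 8, 11312805 to 11449287) was at 1484, 2046, 1847, 1733 and 2041 CPM in AAV9-LMNA replicates 1 to 5, against 1491, 1731 and 1975 CPM in untreated replicates 6 to 8 (log2 fold change 0.08, SE 0.129, adjusted p = 0.661). These genes are read away from each other, and their first exons overlap by 22 bases, so a few reads there could not be assigned. Col4a5 (ENSMUSG00000031274, chromosome X, 141475385 to 141689234), a chain of the kidney and smooth muscle networks that is mutated in human Alport syndrome, was the only collagen called higher. It was at 230.4, 262, 242, 256 and 256 CPM in AAV9-LMNA replicates 1 to 5, against 147, 198 and 206 CPM in untreated replicates 6 to 8 (log2 fold change 0.44, SE 0.116, adjusted p = 0.0208, 1.35-fold). Every AAV9-LMNA library was above every untreated library. With the length and GC correction the call was lost, 0.33 (adjusted p = 0.0644), as it was with scaling over Ensembl genes alone, 0.25 (adjusted p = 0.121). It was kept without untreated replicate 6, 0.31 (adjusted p = 0.0329), and lost without AAV9-LMNA replicate 2, 0.41 (adjusted p = 0.0516). Its partner chains in the kidney network, Col4a3 and Col4a4, were at 31.5 to 39.1 and 29.5 to 46.2 CPM in AAV9-LMNA libraries, against 25.1, 55.4 and 41.2 CPM for Col4a3 and 32.6, 77.9 and 66.3 CPM for Col4a4 in untreated replicates 6 to 8. Neither was called, with log2 fold changes of -0.19 (adjusted p = 0.505) for Col4a3 and -0.60 (adjusted p = 0.100) for Col4a4. Without untreated replicate 6 both were called lower, at -0.43 (adjusted p = 0.0402) for Col4a3 and -0.88 (adjusted p = 0.00398) for Col4a4. With all libraries Col4a4 was also called lower with scaling over Ensembl genes alone, -0.77 (adjusted p = 0.0487), and with no filter on low counts. For Col4a4, untreated replicates 7 and 8 were above every AAV9-LMNA library and replicate 6 was among them. Exons of C430014B12Rik overlap 5.65% of the exon length of Col4a3. Col4a6, the other smooth muscle chain, was at 3.88 to 7.73 CPM in AAV9-LMNA libraries and 2.50 to 12.9 CPM in untreated libraries, a log2 fold change of -0.26 (adjusted p = 0.684).

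The type IV genes lie in 3 head-to-head pairs, and sequence between start sites is shown for the pair that holds the called gene Col4a5 and for the pair of Col4a3 and Col4a4, which were called lower without untreated replicate 6. The start sites of Col4a4 (minus strand, chr1:82586850-82586920) and Col4a3 are 71 bases apart, and those of Col4a6 (minus strand) and Col4a5 (plus strand) are 1308 bases apart. Of the second interval, the 216 bases before the Col4a5 start in GENCODE, which end 34 bases before its RefSeq start (chrX:141475169-141475384), and the 250 bases before the Col4a6 start (chrX:141474077-141474326) are given, each 5′ to 3′ on its gene's strand, from RefSeq on GRCm38.p6. Capitals mark the same motifs on either strand, and a GC box on the opposite strand reads CCGCCC.
Col4a4: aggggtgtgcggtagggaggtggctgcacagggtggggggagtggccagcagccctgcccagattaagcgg
Col4a5: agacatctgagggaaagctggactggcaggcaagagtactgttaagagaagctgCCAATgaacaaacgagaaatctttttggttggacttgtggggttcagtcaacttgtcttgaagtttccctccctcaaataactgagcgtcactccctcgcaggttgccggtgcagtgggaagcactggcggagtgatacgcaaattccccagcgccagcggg
Col4a6: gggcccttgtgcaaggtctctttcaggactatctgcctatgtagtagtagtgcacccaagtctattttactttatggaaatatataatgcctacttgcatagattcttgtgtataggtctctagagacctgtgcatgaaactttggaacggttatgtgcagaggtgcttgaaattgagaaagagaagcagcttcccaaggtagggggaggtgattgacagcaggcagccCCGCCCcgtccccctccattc
The Col4a4 to Col4a3 interval holds none of the 3 motifs, the Col4a5 stretch holds 1 CCAAT and the Col4a6 stretch holds 1 GC box on the opposite strand. Of 32851 windows of 216 bases, 30.8% held CCAAT, and of windows of 250 bases, 32.7% held GGGCGG. Of the second pair Col4a5 was called higher and Col4a6 was not called, and the difference between them was not tested.

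The basement membrane zone also holds the multiplexins, collagens XV and XVIII, whose cleaved ends include restin and endostatin. Col15a1 was at 268, 506, 422, 462 and 439 CPM in AAV9-LMNA replicates 1 to 5, against 63.9, 845 and 503 CPM in untreated replicates 6 to 8 (log2 fold change -0.17, SE 0.669, adjusted p = 0.870). The lowest and the highest of the 8 values were both untreated, and no collagen with a mean of at least 1 CPM varied more among untreated libraries. Col18a1 was at 43.5, 102, 83.4, 63.6 and 84.0 CPM in AAV9-LMNA replicates 1 to 5, against 16.2, 60.9 and 66.1 CPM in untreated replicates 6 to 8 (log2 fold change 0.66, SE 0.455, adjusted p = 0.304). The groups overlapped for both genes.

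Type VI collagen forms beaded filaments beside cells and is deficient in forms of muscular dystrophy. Col6a1 was at 388, 603, 513, 547 and 557 CPM in AAV9-LMNA replicates 1 to 5, against 128, 524 and 452 CPM in untreated replicates 6 to 8, a log2 fold change of 0.50 (adjusted p = 0.363). Col6a2 was at 191, 325, 289.5, 312 and 319.9 CPM in AAV9-LMNA replicates 1 to 5, against 59.9, 401 and 296 CPM in untreated replicates 6 to 8, a log2 fold change of 0.19 (adjusted p = 0.806). Col6a3 was at 203, 327, 273, 325 and 369 CPM in AAV9-LMNA replicates 1 to 5, against 59.2, 479 and 258 CPM in untreated replicates 6 to 8, a log2 fold change of 0.17 (adjusted p = 0.835). All 3 main chains were lowest in untreated replicate 6 and none was called. Col6a6, a relative of the alpha 3 chain, was at 48.0 to 72.7 CPM in AAV9-LMNA libraries and 17.3 to 72.2 CPM in untreated libraries. Col6a5 was at 0.888, 1.67, 2.23, 3.78 and 1.31 CPM in AAV9-LMNA replicates 1 to 5, against 0.697, 3.20 and 6.08 CPM in untreated replicates 6 to 8. Col6a5 varied most among the AAV9-LMNA libraries of all collagens with a mean of at least 1 CPM.

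Of the fibril-associated collagens (FACITs), which sit on fibrils or link them to other matrix, 6 of 9 were tested, and none was called by edgeR, DESeq2 or limma-voom or had an unadjusted p under 0.05 by any of them. Col14a1 was at 59.0, 127, 116, 123 and 114 CPM in AAV9-LMNA replicates 1 to 5, against 16.1, 121 and 107 CPM in untreated replicates 6 to 8, a log2 fold change of 0.40 (adjusted p = 0.627). Col12a1, its close relative, was at 4.86, 6.59, 7.02, 5.11 and 11.3 CPM in AAV9-LMNA replicates 1 to 5, against 3.36, 10.6 and 11.8 CPM in untreated replicates 6 to 8, a log2 fold change of -0.30 (adjusted p = 0.596). Each group held a low library in Col14a1, replicate 1 of AAV9-LMNA and replicate 6 of untreated. Col9a2, a cartilage chain, was at 1.40, 3.83, 3.84, 3.09 and 3.58 CPM in AAV9-LMNA replicates 1 to 5, against 0.984, 3.33 and 2.45 CPM in untreated replicates 6 to 8, and it too was lowest in those libraries of each group. Col16a1 was at 24.1 to 46.5 CPM in AAV9-LMNA libraries and 8.37 to 36.8 CPM in untreated libraries, a log2 fold change of 0.57 (adjusted p = 0.339). Col9a3 and Col20a1 were at 0.841 to 1.46 and 3.78 to 5.79 CPM in AAV9-LMNA libraries, against 0.533 to 1.54 and 4.02 to 8.83 CPM in untreated libraries.

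Among short-chain collagens, Col10a1 (ENSMUSG00000039462, chromosome 10, 34389981 to 34397085), the collagen of hypertrophic cartilage, was called lower at a low level. It was at 1.92, 0.947, 0.996, 0.902 and 1.31 CPM in AAV9-LMNA replicates 1 to 5, against 3.32, 2.26 and 3.13 CPM in untreated replicates 6 to 8, from 21 to 41 reads per AAV9-LMNA library and 53 to 81 reads per untreated library. Every AAV9-LMNA value was below every untreated value (log2 fold change -1.26, SE 0.289, adjusted p = 0.0122), 2.39-fold lower in AAV9-LMNA hearts. The call held with the length and GC correction, -1.60 (adjusted p = 0.0157), and without untreated replicate 6, -1.14 (adjusted p = 0.0341), and was lost without untreated replicates 6 and 8 together, -0.89 (adjusted p = 0.203). Chondrocyte markers summed to 7.16 to 11.8 CPM in AAV9-LMNA libraries and 6.19 to 23.6 CPM in untreated libraries, and their part in this result was not tested. Exons of Nt5dc1 overlap 0.575% of the exon length of Col10a1. Col8a1, a vascular and valvular network chain, was at 33.9, 52.4, 55.02, 50.1 and 72.5 CPM in AAV9-LMNA replicates 1 to 5, against 7.96, 62.9 and 27.2 CPM in untreated replicates 6 to 8 (log2 fold change 0.69, SE 0.574, adjusted p = 0.393). Col8a2, its partner chain in the cornea, was at 1.03 to 2.13 CPM in AAV9-LMNA libraries and 0.164 to 2.18 CPM in untreated libraries.

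The 4 transmembrane collagens, which span the cell membrane and can be shed from it, were the type with every fold change below 0, also with Ensembl genes alone and with the length and GC correction. Col17a1 (ENSMUSG00000025064, chromosome 19, 47646344 to 47692094), the hemidesmosome collagen of skin, was called lower. It was at 3.13, 2.16, 3.08, 2.53 and 2.45 CPM in AAV9-LMNA replicates 1 to 5, against 5.25, 3.58 and 3.86 CPM in untreated replicates 6 to 8 (log2 fold change -0.67, SE 0.217, adjusted p = 0.0438), without overlap. That call was lost with no filter on low counts, -0.62 (adjusted p = 0.115), with the length and GC correction, -0.81 (adjusted p = 0.0568), without untreated replicate 6, -0.47 (adjusted p = 0.1702), and without any 1 of AAV9-LMNA replicates 2 to 5 or untreated replicate 8 (adjusted p = 0.0627 to 0.0977). Col13a1, a collagen of the neuromuscular junction, was at 4.25, 2.16, 3.18, 3.52 and 2.54 CPM in AAV9-LMNA replicates 1 to 5, against 9.11, 2.60 and 6.36 CPM in untreated replicates 6 to 8, a log2 fold change of -0.95 (adjusted p = 0.0684). Col23a1 was at 2.38, 2.01, 0.949, 2.32 and 2.35 CPM in AAV9-LMNA replicates 1 to 5, against 2.62, 3.24 and 5.45 CPM in untreated replicates 6 to 8, a log2 fold change of -0.91 (adjusted p = 0.0595). Col25a1, which is expressed in neurons and developing muscle, was at 0.420, 0.682, 0.569, 1.12 and 1.27 CPM in AAV9-LMNA replicates 1 to 5, against 2.05, 0.981 and 2.00 CPM in untreated replicates 6 to 8, a log2 fold change of -1.04 (adjusted p = 0.0684). None of these 3 was called by edgeR, where all 4 had an unadjusted p under 0.05 (DESeq2 called 3 of the 4 lower), against 40.6% of all features with such a p and 15.9% called lower by DESeq2. The groups overlapped for Col13a1 and Col25a1. Without untreated replicate 7, and with no filter on low counts, all 3 were called lower. Over all features, 18.7% were called lower without untreated replicate 7 and 6.49% with no filter. All 4 genes had under 10 CPM in every library, and unlike the abundant collagens 3 of the 4 were not lowest in untreated replicate 6 among its group. Of the 13785 coding genes tested, 7030 were lowest in it among that group. Col2a1, Col10a1, Col11a2, Col24a1 and Col28a1 were not lowest in it either. Each of these also had a mean under 10 CPM over all libraries, so the trait was not particular to transmembrane collagens. Col7a1, the anchoring fibril chain of skin, was at 2.63 to 4.55 CPM in AAV9-LMNA libraries and 2.99 to 5.46 CPM in untreated libraries. Col26a1 was at 8.55 to 14.1 CPM in AAV9-LMNA libraries, against 1.97, 11.5 and 10.99 CPM in untreated replicates 6 to 8. Col28a1, found around peripheral nerve, was at 16.8, 8.71, 8.06, 5.45 and 9.96 CPM in AAV9-LMNA replicates 1 to 5, against 2.95, 2.56 and 9.12 CPM in untreated replicates 6 to 8 (log2 fold change 1.01, SE 0.484, adjusted p = 0.149). It was called higher without untreated replicate 8, 1.83 (adjusted p = 0.0183). Its highest value was in AAV9-LMNA replicate 1, the library in which most other collagens were lowest of that group. Schwann cell markers summed to 36.4 to 40.7 CPM in AAV9-LMNA libraries and 21.3 to 41.5 CPM in untreated libraries.

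**Figure D4:**
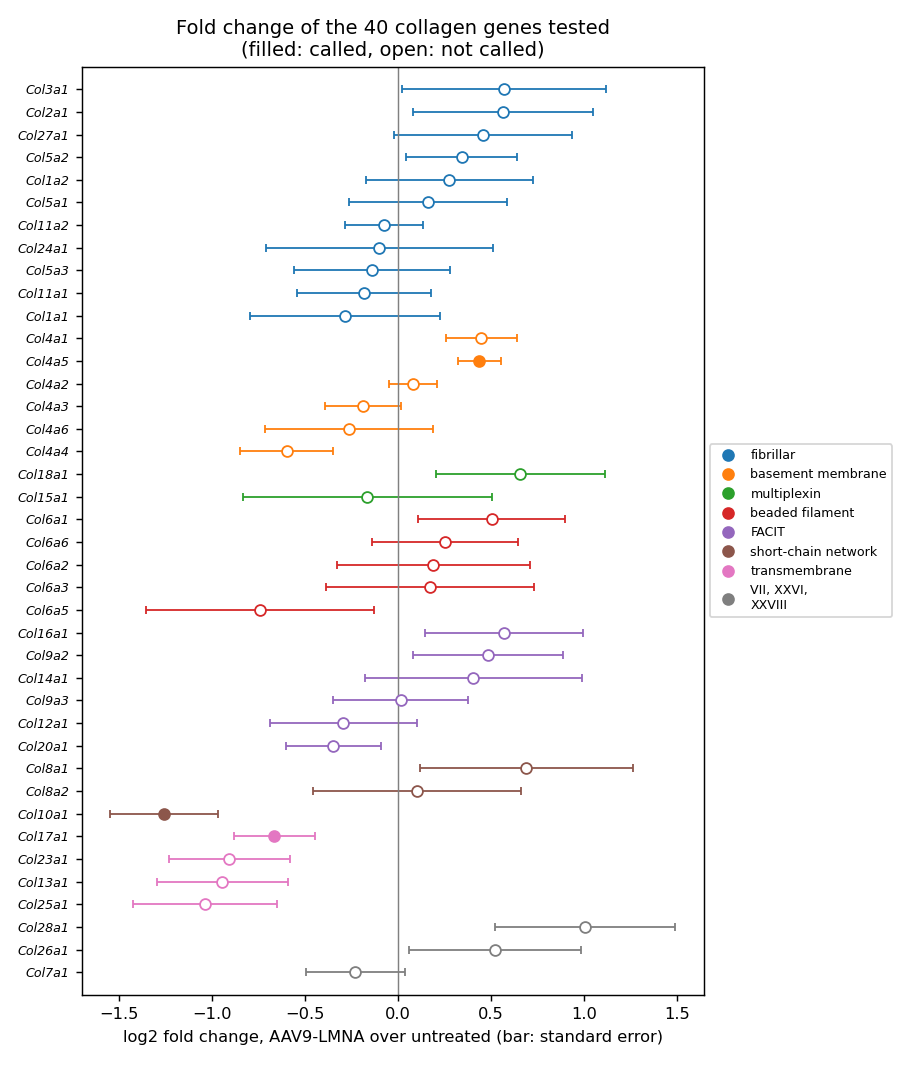
Log2 fold change, AAV9-LMNA over untreated, with its standard error for the 40 collagen genes tested, by type (filled points: called, adjusted p under 0.05). The 3 filled points are Col4a5 at 0.44, Col17a1 at -0.67 and Col10a1 at -1.26.

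The spread between libraries was wide for collagens and much wider among the 3 untreated libraries. Of the 40 collagens tested, 32 were lowest among these in replicate 6, and the spread without it was not computed. The median SD of log2(CPM + 0.5) over the 40 tested genes was 0.298 among AAV9-LMNA libraries and 0.915 among untreated libraries, against 0.209 among AAV9-LMNA and 0.295 among untreated libraries over all features. Among the 22 collagens with a mean of at least 10 CPM it was 0.269 in AAV9-LMNA libraries and 1.22 in untreated libraries, and among the 8392 coding genes at that level 0.114 in AAV9-LMNA libraries and 0.219 in untreated libraries. By type, the median was 0.283 in AAV9-LMNA and 1.22 in untreated libraries for fibrillar chains, 0.219 in AAV9-LMNA and 0.494 in untreated libraries for type IV, and 0.335 in AAV9-LMNA and 1.08 in untreated libraries for other types. In untreated replicate 6, collagens had a median log2 ratio of -1.49 to the mean of replicates 7 and 8, against 0.02 over all features and -0.17 over coding genes. It was -2.10 for fibrillar genes, -0.83 for type IV, -2.66 for multiplexins, -2.10 for type VI and 0.40 for transmembrane collagens. Of the 22 abundant collagens, 20 were lowest in this library of all 8, as were 3618 of the 8392 coding genes at that level. AAV9-LMNA replicate 1 was lower by a smaller step. Its median log2 ratio to the mean of replicates 2 to 5 was -0.48, against -0.01 over all features. Within its group 29 of the 40 collagens were lowest in it, beside 6556 of 26717 features tested and 4229 of 13785 coding genes. Since these libraries were compared within their own groups after their values were seen, the ratios are descriptions.

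**Figure D5:**
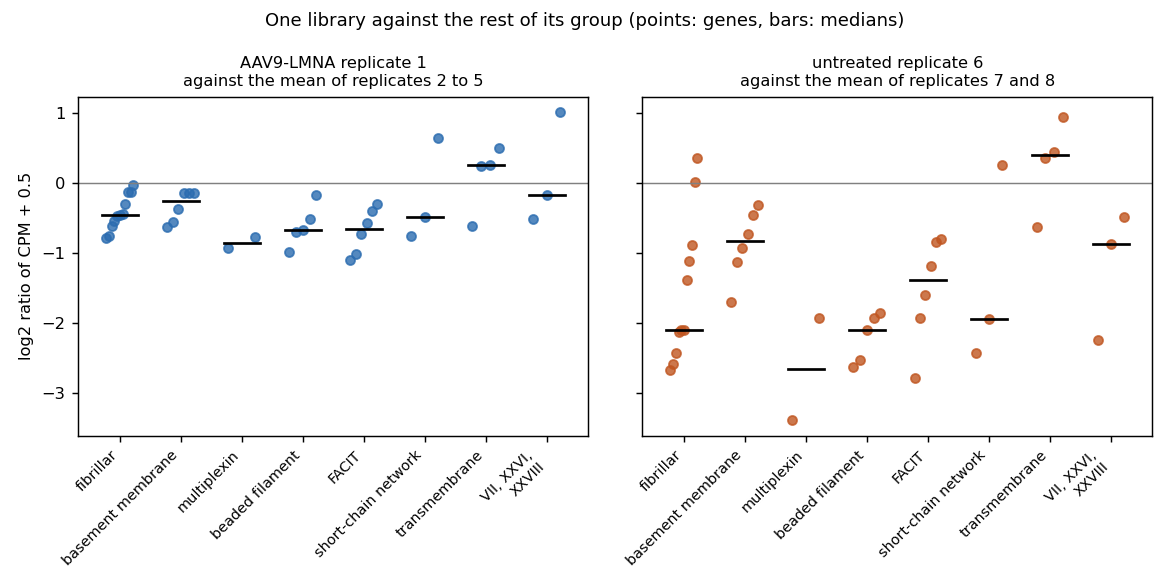
Log2 ratio of CPM + 0.5 of each tested collagen gene in AAV9-LMNA replicate 1 against the mean of replicates 2 to 5 (left) and in untreated replicate 6 against the mean of replicates 7 and 8 (right), by type, with the median as a bar. Fibrillar genes have a median of -0.46 on the left and -2.10 on the right, and type IV genes of -0.26 and -0.83.

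Without untreated replicate 6, more collagens were called lower in AAV9-LMNA hearts. The median log2 fold change became -0.28 over collagens (-0.14 fibrillar, -0.22 type IV, -0.30 other), against -0.02 over all features and 0.16 over coding genes. Then 6 collagens were called lower and 1 higher, of 40 tested, beside 7.99% of all features called lower and 7.31% higher. The 6 were Col1a1 at -0.74 (adjusted p = 0.0118), Col5a3 at -0.56 (adjusted p = 0.0231), Col4a3 at -0.43 (adjusted p = 0.0402), Col4a4 at -0.88 (adjusted p = 0.00398), Col10a1 at -1.14 (adjusted p = 0.0341) and Col23a1 at -1.10 (adjusted p = 0.0397). Col3a1 was at 0.10 (adjusted p = 0.770) in this comparison.

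Genes that act on collagens were taken from 5 lists. Of 22 genes for chain modification and folding, 2 were called higher by edgeR (4 by DESeq2, 3 by limma-voom), 7 had an unadjusted p under 0.05 and none was called lower by any of these. Over all features edgeR called 10.6% higher, over coding genes 18.4%, and 40.6% of features had such a p. The list had a median log2 fold change of 0.32, against -0.03 over all features and 0.21 over coding genes. The 2 that edgeR called are galactosyltransferases of collagen hydroxylysines. Colgalt1 was at 75.7, 75.6, 76.9, 68.0 and 72.3 CPM in AAV9-LMNA replicates 1 to 5, against 39.7, 62.9 and 58.4 CPM in untreated replicates 6 to 8 (log2 fold change 0.46, SE 0.137, adjusted p = 0.0326), and exons of Unc13a overlap 11.4% of its exon length. Colgalt2 was at 23.7, 28.6, 32.3, 25.8 and 25.6 CPM in AAV9-LMNA replicates 1 to 5, against 9.23, 19.9 and 18.2 CPM in untreated replicates 6 to 8 (log2 fold change 0.79, SE 0.220, adjusted p = 0.0264). For both genes every AAV9-LMNA library was above every untreated library. Both calls were lost after the length and GC correction, at 0.25 (adjusted p = 0.164) for Colgalt1 and 0.57 (adjusted p = 0.0798) for Colgalt2. That of Colgalt1 was also lost without untreated replicate 6, 0.29 (adjusted p = 0.0513), and without AAV9-LMNA replicate 1, 2, 3 or 5, and that of Colgalt2 without AAV9-LMNA replicate 2 or 3. None of 8 propeptide cleavage genes was called by edgeR, DESeq2 or limma-voom, and 1 had an unadjusted p under 0.05 (median -0.06). Adamts2, the procollagen N-proteinase, was at 83.0 to 109.8 CPM in AAV9-LMNA libraries and 50.2 to 129 CPM in untreated libraries. Pcolce, an enhancer of C-propeptide cleavage, was at 53.6 to 91.0 CPM in AAV9-LMNA libraries and 24.8 to 99.997 CPM in untreated libraries.

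None of 9 tested collagen receptor genes was called by edgeR, 1 was called higher by each of DESeq2 and limma-voom, and 1 had an unadjusted p under 0.05 (median 0.35). Itgb1, the beta 1 integrin shared by collagen receptors, was at 691 to 848 CPM in AAV9-LMNA libraries and 499.7 to 716 CPM in untreated libraries (log2 fold change 0.35, SE 0.125, adjusted p = 0.0606). It was the gene called by the other tools, at adjusted p = 0.0426 with DESeq2 and 0.0462 with limma-voom, and edgeR called it without untreated replicate 7 (adjusted p = 0.00980). Itga1, the alpha 1 integrin, was at 129.9 to 177 CPM in AAV9-LMNA libraries and 68.5 to 142 CPM in untreated libraries (log2 fold change 0.45, SE 0.206, adjusted p = 0.126). It was called higher when exon length and GC content were corrected for, 0.69 (adjusted p = 0.0490), and with no filter on low counts, 0.49 (adjusted p = 0.000572). None of 12 fibril regulators was called by edgeR, DESeq2 or limma-voom (median -0.09), and 0 had an unadjusted p under 0.05 by edgeR, 1 by DESeq2 and 2 by limma-voom. Without untreated replicate 6, 3 of them were called lower, beside 7.99% of all features. Sparc, a collagen-binding chaperone of the matrix, was at 987 to 1450.0 CPM in AAV9-LMNA libraries and 489.7 to 1327 CPM in untreated libraries. Dcn, the proteoglycan decorin on type I fibrils, was at 766 to 879 CPM in AAV9-LMNA libraries and 570.2 to 808 CPM in untreated libraries. Of 11 basement membrane partners, 1 was called lower and none higher by edgeR, DESeq2 and limma-voom alike, and 3 had an unadjusted p under 0.05 by edgeR (median -0.01). Hspg2, the gene of the basement membrane proteoglycan perlecan, was at 1446, 1873, 1641, 1732 and 1794 CPM in AAV9-LMNA replicates 1 to 5, against 2037, 3133 and 2876 CPM in untreated replicates 6 to 8 (log2 fold change -0.66, SE 0.137, adjusted p = 0.00853). Every AAV9-LMNA library was below every untreated library. It was not called with the length and GC correction, -0.47 (adjusted p = 0.0679). Nid1, the gene of nidogen 1, which links laminin to type IV collagen, was named after its values were seen. It was at 464 to 496 CPM in AAV9-LMNA libraries, against 452, 650.3 and 846 CPM in untreated replicates 6 to 8, and it was not called (log2 fold change -0.43, SE 0.157, adjusted p = 0.0657). It was called lower with the length and GC correction, -0.52 (adjusted p = 0.0494), and with scaling over Ensembl genes alone, -0.61 (adjusted p = 0.0260). Without untreated replicate 6, 3 of the partners were called lower and 1 higher, beside 7.99% of all features called lower and 7.31% higher.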

How the data were processed

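Per the labels' protocols, total heart RNA came from a miRNeasy kit, and libraries were prepared with Illumina's TruSeq chemistry. The deposited values are whole-number counts of reads per gene, not normalized, 1 table per library, counted without strand per the deposited tables' names. TopHat2, HTSeq, limma and edgeR and the build GRCm38 stand in the submitters' processing notes with no version or role. The 53465 Ensembl genes and 87774 noncoding genes of the NONCODE catalogue were used together, and the 5 summary lines of each table were left out. Of the Ensembl identifiers, 53360 matched GENCODE, which gave symbols, coordinates and exon lengths.

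Counts were tested with edgeR 4.0.16 (R 4.3.3): TMM scaling, filterByExpr, robust quasi-likelihood fits on the vector alone, and a Benjamini-Hochberg threshold of 0.05 across 26717 features. Fold changes are AAV9-LMNA over untreated, and standard errors were derived from the test's p and degrees of freedom. Depth ran from 21439956 to 26492443 counts, so genes at a few CPM rest on few reads. Tested on simulated counts (25784 features), the test called 47% of 100 genes changed 2-fold and 91% of 100 changed 4-fold, with 13 false among 151 calls. Each simulated gene had the same dispersion in both groups, and no library was set apart. Collagens spread more among untreated libraries (median SD of log2(CPM + 0.5) 0.915) than among AAV9-LMNA libraries (0.298), so these shares need not hold for them.

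Alternatives were DESeq2 1.42.0, limma-voom 3.58.1, RLE factors, other filters, Ensembl genes alone, a loess correction for exon length and GC content (span 0.5), and leaving out libraries. Chain ratios after that correction were added after seeing the data. The collagen genes, their types and the pathway and marker lists were chosen with earlier results of these data known. Named genes were Lmna, every collagen called, the main chains, the 3 most variable collagens in each group with a mean of at least 1 CPM, and from each pathway list up to 4 called genes, or the 2 highest where none was called. Collagens named beside these complete their type, and Pdgfra, Gsn and Ttn were named outside this rule. Sequences were RefSeq's, with 35 of the 44 genes matched.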

Additional observations from a re-analysis of the deposited data

Results flagged for a closer look

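In 46 sets of 5 AAV9-LMNA values looked at, 5 had a library whose gap to the nearest other, as a part of the range, passed the critical value of 0.71 for 5 samples. Chance gives about 1 in 20 sets. Of the 5, 4 concern AAV9-LMNA replicate 1, so they are not independent of each other. In that library Col1a1 was at 386 CPM, against 552 to 614 CPM in replicates 2 to 5. Col6a2 was at 191 CPM there, against 289.5 to 325 CPM in replicates 2 to 5. Col14a1 was at 59.0 CPM there, against 114 to 127 CPM in replicates 2 to 5. The ratio of Col4a1 to Col4a2 was 1.19 there, against 1.34 to 1.37 in replicates 2 to 5. Col23a1 was at 0.949 CPM in AAV9-LMNA replicate 3, from 20 reads, against 2.01 to 2.38 CPM in the other 4. Untreated hearts, with 3 libraries, were not looked at in this way, so the count says nothing of untreated replicate 6.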

How the results depend on the processing

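With all libraries 2 collagens were called lower and 1 higher. Lower calls were 4 by DESeq2, 5 with no filter and 1 after the length and GC correction, and 1 to 6 when a library was left out in turn (6 without untreated replicate 6, 5 without replicate 7). Higher calls were 0 with Ensembl genes alone, 0 after the correction, 0 without untreated replicates 6 and 8 together and 0 to 2 leaving out a library. For type IV, higher calls were likewise 0 in those 3 settings and 0 to 2 leaving out a library. Its lower calls were 1 with no filter, 1 with Ensembl genes alone, 2 without untreated replicates 6 and 8 and 0 to 2 leaving out a library. Fibrillar lower calls were 0 to 2 leaving out a library. For other types, lower calls were 4 by DESeq2, 4 with no filter, 1 after the correction, 1 without untreated replicates 6 and 8 and 1 to 5 leaving out a library, and higher calls 0 to 1. The Col17a1 call was lost without any 1 of AAV9-LMNA replicates 2 to 5 or untreated replicates 6 and 8 and with no filter (adjusted p = 0.115), that of Col4a5 without AAV9-LMNA replicate 2 (adjusted p = 0.0516), and that of Col10a1 without untreated replicates 6 and 8 together (adjusted p = 0.203). Over all features these settings called 3.36 to 18.7% lower and 2.63 to 17.0% higher. Without untreated replicates 6 and 8 the lone untreated library was assumed to vary like the AAV9-LMNA ones. Causes were not tested.

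Among the genes named by the rule above, log2 fold changes of 14 uncalled genes changed sign. Collagens outside that rule could change sign too. Without untreated replicate 6, Col6a6 went from 0.25 to -0.14 and Col8a2 from 0.10 to -0.42. Leaving out a library gave -0.67 to 0.0084 for Col12a1, -0.073 to 0.82 for Col14a1, -0.68 to 0.58 for Col15a1, -0.74 to 0.10 for Col1a1, -0.14 to 0.63 for Col1a2, -0.0072 to 0.19 for Col4a2, -0.26 to 0.48 for Col5a1, -0.27 to 0.71 for Col6a2, -0.29 to 0.93 for Col6a3, -1.22 to 0.033 for Col6a5, -0.26 to 0.29 for Adamts2 and -0.059 to 0.86 for Pcolce. Without untreated replicates 6 and 8 together they were -0.16 for Col14a1, -0.048 for Col1a2, -0.30 for Col5a1, -0.47 for Col6a2, -0.67 for Col6a3, -0.24 for Col8a1, -0.064 for Col9a2, -0.19 for Adamts2 and -0.38 for Pcolce. By limma-voom they were 0.46 for Col15a1 and 0.10 for Col1a1. With Ensembl genes alone they were -0.11 for Col4a2 and -0.12 for Adamts2, and after the correction -0.010 for Col4a2. No paired analysis was possible because the groups share no replicate number. Col10a1 and the transmembrane collagens, all under 10 CPM in every library, rest on 9 to 222 reads per library.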
